A study of Arabidopsis thaliana with 2 samples.

Results

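Auxin response factors (ARFs) are plant transcription factors that bind auxin response elements upstream of auxin-regulated genes. At low auxin, Aux/IAA proteins hold them in check by recruiting TOPLESS co-repressors. When auxin rises, receptors of the TIR1/AFB family mark the Aux/IAA proteins for degradation and the ARFs are released. In Arabidopsis, ARF5, ARF6, ARF7 and ARF8 act mainly as activators, and the other members described here mainly as repressors, and several family members are held down by small RNAs that cleave their mRNAs.

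The transcripts of 10 ARF genes (ARF2 to ARF8, ARF10, ARF16 and ARF17) were described, out of 37885 annotated nuclear genes, and a read was counted for a gene when it overlapped its exons on the same strand. The reads came from inflorescences with unopened floral buds of Arabidopsis thaliana, wild type of the widely used laboratory accession Col-0. There were 2 biological replicates of this single condition, each sequenced as 1 library of full-length cDNA on a PacBio instrument from 10 μg of total RNA (RNA integrity numbers of 9.0 and 9.2). A full-length non-chimeric read is a consensus sequence of a single cDNA that still has its primers at both ends and its poly(A) tail, so reads were counted per cDNA and not per length of transcript. Reads that may be copies of the same RNA molecule were not identified.

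Replicate 1 held 267716 aligned reads and replicate 2 held 255215, of which 253011 and 239558 were assigned to nuclear genes. The floral organ identity genes AP1, AP3, PI, AG and SEP3 were all present, with 37 reads (AP3) to 160 reads (SEP3) over both replicates. With at most 92 reads per ARF gene, counting error limited every share given here, and the 95% intervals cover that error only.

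The ARF genes ranged from well above to below the median of the 20996 genes with reads, which was 9 reads over both replicates. Together they gave 115 reads in replicate 1 (95% Poisson interval, 94.9 to 138) and 192.5 reads in replicate 2 (166 to 222), which corresponded to 455 and 804 RPM (reads per 1000000 reads assigned to genes). The fraction arises because a read with several alignments was split between them, and it concerned 1 alignment at ARF3. The 307.5 reads fell into 299 distinct structures.

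ARF2, a repressor known for its roles in organ ageing and abscission, was the most-read member. It had 26 reads in replicate 1 (102.8 RPM) and 66 reads in replicate 2 (276 RPM), a mean of 189 ± 122 RPM (SD, n = 2), which placed it at rank 847 of 20996 genes with reads. ARF8 followed with 14 and 29 reads and a mean of 88.2 ± 46.5 RPM. ARF3 had 21 and 21.5 reads, with a mean of 86.4 ± 4.77 RPM. ARF6 had 14 and 23 reads, ARF5 had 12 and 18, and ARF17 had 11 and 18, with means of 75.7 ± 28.8, 61.3 ± 19.6 and 59.3 ± 22.4 RPM. These 5 genes lay close together, since the Poisson intervals of their summed reads all overlapped.

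The remaining 4 genes were sparse. ARF10 had 7 and 3 reads in replicates 1 and 2, ARF4 had 2 and 7, ARF7 had 5 and 4, and ARF16 had 3 and 3. Their means of 20.1 ± 10.7, 18.6 ± 15.1, 18.2 ± 2.17 and 12.2 ± 0.471 RPM were below that of ARF17, and their order among themselves was within the counting error. For the summed reads, only 2 steps in the order exceeded that error. The interval of ARF2 (74.2 to 113) did not overlap that of ARF8 (31.1 to 57.9). Nor did the interval of ARF17 (19.4 to 41.6) overlap that of ARF10 (4.80 to 18.4). Both steps rested on replicate 2, where neither pair of intervals overlapped. In replicate 1 alone, the intervals of both pairs overlapped, and that of ARF2 also overlapped that of ARF3. Per kb of the longest annotated transcript, ARF2 (49.4 RPM per kb) still came first, and ARF3 (35.5) stood ahead of ARF8 (25.3).

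**Figure D1:**
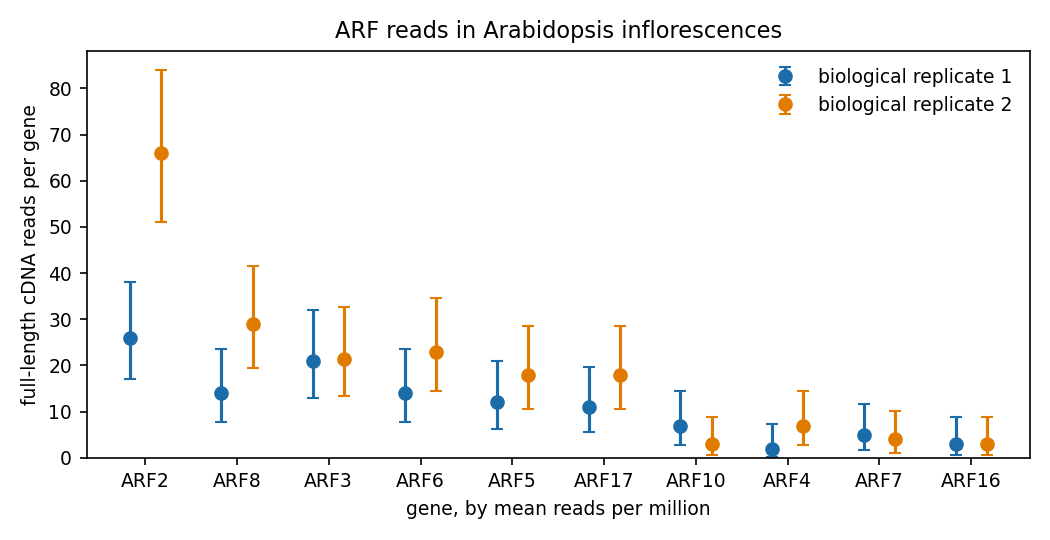
Full-length reads per ARF gene in each biological replicate (vertical axis, reads, with 95% Poisson intervals), with genes ordered by mean RPM on the horizontal axis. ARF2 stands highest with 26 and 66 reads, and it is the gene whose replicates lie farthest apart.

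ARF2 was also the member whose replicates differed by more than counting error. In an exact binomial test of each gene's reads in replicate 2 against the library totals, with Benjamini-Hochberg adjustment over 9944 genes with at least 10 reads, ARF2 had an adjusted p of 0.00240. Across all tested genes, 113 (1.14%) passed at an adjusted p under 0.05, and 90 (0.905%) did so with a higher RPM in replicate 2. None of the other 6 ARF genes with enough reads passed, with exact adjusted p-values from 0.284 (ARF8) to 1 (ARF3). At an unadjusted threshold ARF8 would have passed (exact p = 0.0145).

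The completeness of the reads differed between the libraries, and more so for the long ARF transcripts. An exon chain was called complete when it held exactly the introns of an annotated transcript. A read that begins within a long first exon also passes this rule, so a complete chain need not reach the 5′ end. In replicate 1, 41 of 115 ARF reads were complete (35.7%, 95% Wilson interval 27.5 to 44.7), against 54.7% (54.1 to 55.4) for the reads of 3364 other genes whose longest transcripts lay in the same range of 2430 to 4429 nt. In replicate 2, 131 of 192.5 ARF reads were complete (68.1%, 61.3 to 74.4), against 68.6% (68.1 to 69.1) for the other genes. Fisher's exact test, adjusted over 4 tests, gave p = 9.33e-05 in replicate 1 and p = 0.938 in replicate 2. The test treats reads as independent, whereas the reads of a gene share their transcript and library.

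A cap label marks a read whose 5′ end carried an untemplated G upstream of the aligned sequence, the trace that reverse transcriptase leaves when it reaches the mRNA cap. Reads without this label are called uncapped here, although a missing label does not show that the RNA had no cap. Cap labels were found on 27 ARF reads in replicate 1 (23.5%, 16.7 to 32.0), against 43.1% (42.5 to 43.8) in the other genes of the same lengths, and on 99 reads in replicate 2 (51.4%, 44.5 to 58.5), against 54.2% (53.7 to 54.7). The exact Fisher tests gave adjusted p = 6.74e-05 and p = 0.625. Cap labels were rare on fragments, with 3 of 79 spliced fragments (3.80%, 1.30 to 10.6) and 0 of 20.5 fragments without an intron, as opposed to 101 of 172 complete reads (58.7%, 51.3 to 65.8). Reads of other structures (10 of 17, 58.8%, 36.0 to 78.4) and reads with a masked exon (12 of 19, 63.2%, 41.0 to 80.9) had shares whose intervals overlapped that of complete reads. Nearly all ARF reads kept the label of a poly(A) end. It was found on 112 of 115 in replicate 1 (97.4%) and 181 of 192.5 in replicate 2 (94.0%). The other genes of the same lengths had 86.6% and 88.0%. Reads without a poly(A) tail had been removed beforehand, so this label does not show where the incomplete reads stopped. Among the incomplete reads, fragments (79 spliced and 20.5 without an intron) outnumbered other structures (17) and masked reads (19).

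By transcript length, a division chosen after the values were seen, ARF reads of replicate 1 were below other genes in the 6 genes with transcripts of 3000 nt or more. In these genes 11 of 73 reads were complete in replicate 1 (15.1%, 8.63 to 25.002), against 38.0% (36.9 to 39.1) in 1571 other genes of such lengths, and 98 of 147 in replicate 2 (66.7%, 58.7 to 73.8), against 62.4% (61.6 to 63.2). In the 4 shorter ARF genes the shares were 71.4% (56.4 to 82.8) and 72.5% (57.5 to 82.7) in replicates 1 and 2, against 63.3% and 72.8% in 1793 other genes. ARF6 had 0 complete reads of 14 in replicate 1, which allows a share of up to 21.4%, and 14 of 23 in replicate 2. ARF2 had 6 of 26 and 51 of 66, and ARF8 had 1 of 14 and 17 of 29. The shorter ARF3 had 19 of 21 and 14 of 21.5, and ARF17 had 9 of 11 and 15 of 18. These genes gave most of the complete reads of the shorter group, since ARF10 had 2 of 7 and 2 of 3, and ARF16 had 0 of 3 and 2 of 3. The other genes were matched by length only, and not by the number or position of their introns.

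**Figure D2:**
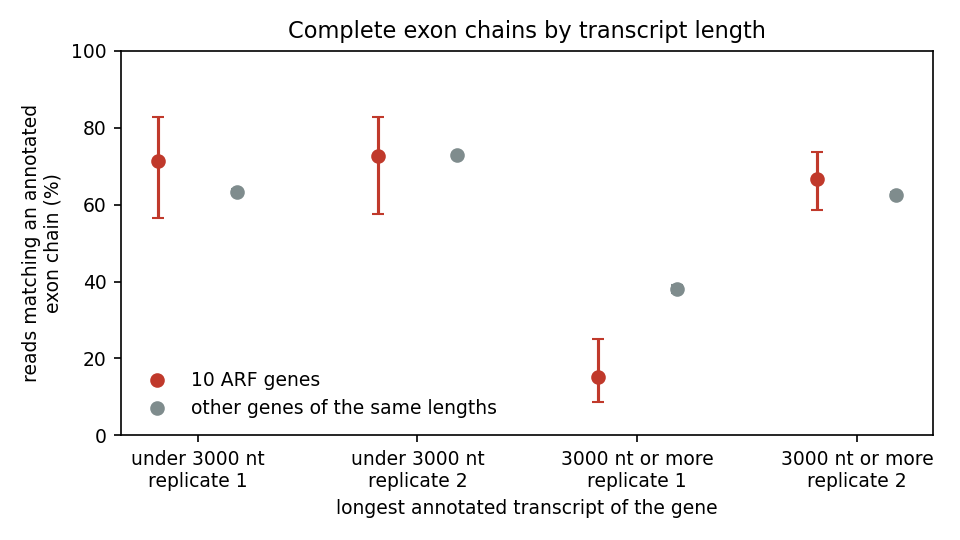
Share of reads that match a complete annotated exon chain (vertical axis, %, with 95% Wilson intervals) for the 10 ARF genes and, beside them, other genes of the same length range, split by the longest transcript and by replicate. The ARF reads of long transcripts in replicate 1 stand apart at 15.1%, while the other ARF shares lie between 66.7% and 72.5%.

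Over the 10 genes, reads used 14 of 25 annotated exon chains, and 68 different spliced structures were seen, fragments included. ARF7 had no complete read in either replicate. Of 102 annotated ARF introns, 97 were covered by at least 1 read and 82 of these were never retained. A read was taken to retain an intron when a single aligned block ran through it with 10 nt on each side. By the rule of at least 3 retaining reads and at least 10% of the covering reads, 2 of 72 ARF introns with at least 10 covering reads were retained, against a background of 2.6% of 52278 such introns in all nuclear genes. Both of them, the first introns of ARF5 and ARF6, are annotated in only some transcripts of their genes.

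Among the activators, ARF5 (MONOPTEROS, RefSeq symbol MP, AT1G19850; TAIR10.1 chromosome 1, 6886669 to 6891404, plus strand), which is required for the embryonic axis and for flower initiation, gave 4 complete reads of 12 in replicate 1 and 12 of 18 in replicate 2. All 16 had the same chain of 12 introns and 13 exons. The alternative first intron (6887045 to 6887380), which spans the annotated coding start and occurs in 1 of 2 annotated transcripts, was retained in 11 of 12 covering reads (91.7%, 64.6 to 98.5). The remaining read had a longer gap of 2639 nt across this place, which began with GA and ended with AG at the annotated end of intron 11 (6889522). ARF5 had no sharp start: its 12 cap-labelled ends spread over spliced distances of 36 to 661 nt from the annotated start, and no position held more than 2.

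ARF6 (AT1G30330; chromosome 1, 10685822 to 10690988, minus strand) acts together with ARF8 in stamen filament elongation and flower maturation. All of its 10 capped reads came from replicate 2, and 5 of them lay within 10 nt of position 10690778, 210 nt downstream of the annotated start. Its first intron (10690219 to 10690304), in the 5′ leader and annotated in 1 of 3 transcripts, was retained in all 17 covering reads, again all from replicate 2. A pair of acceptor sites 6 nt apart followed a shared donor. The acceptor nearer to the donor was used in 13 reads and the farther one in 4, a share of 76.5% (52.7 to 90.4) for the nearer. The sequences across both sites are given because they show the alternative, with the last 2 bases of each intron in capitals.
ARF6 nearer acceptor: ggattgaaAGttacaggaga
ARF6 farther acceptor: aaagttacAGgagagaaaag
The complete reads, 11 with the nearer acceptor and 3 with the farther, were found only in replicate 2.

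ARF7 (RefSeq symbol NPH4, AT5G20730; chromosome 5, 7016445 to 7022179, minus strand), an activator known from tropic growth and lateral root formation, has the longest transcript of the group (4429 nt). None of its 9 reads was complete or capped, which allows shares of up to 33.3%. All 9 were fragments, and the longest began at a spliced distance of 1161 nt. An intron of 45 nt near its 3′ end (7016724 to 7016768), annotated in 1 of 3 transcripts, was retained in 7 of 7 covering reads. All 7 reads that kept the 3′ label ended within 50 nt of position 7016547.

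ARF8 (AT5G37020; chromosome 5, 14629453 to 14634454, plus strand) gave the widest variety of structures after ARF2, with 16 spliced chains from 43 reads. Of its 3 annotated chains only that of 13 introns with the longer last intron (76 nt) was read in full, by 1 read in replicate 1 and 17 in replicate 2. A single intron of 14 was ever retained, namely intron 9 (14631964 to 14632075, 112 nt, within the coding region). It was retained in 1 of 8 covering reads in replicate 1 (12.5%, 2.24 to 47.1) and 1 of 27 in replicate 2 (3.70%, 0.657 to 18.3). Both retaining reads were capped, compared with 4 of 7 splicing reads in replicate 1 and 13 of 26 in replicate 2, a difference that so few reads cannot resolve (exact Fisher p = 1 in each replicate). Neither was a cleanly aligned read of the whole transcript. That of replicate 1 had a masked exon, and that of replicate 2 began in intron 3, at offset 1157 nt. Over all ARF8 introns, 1 of 104 pairs of a read and an intron was retained in replicate 1 (0.962%) and 1 of 356 in replicate 2 (0.281%), against 2.995% and 2.89% over all nuclear genes. The other 13 introns were retained in none of 21 to 42 covering reads. This includes intron 3 (14630576 to 14630681), whose retention is part of an annotated ARF8 transcript: it was spliced in 24 of 24 reads that span it, which allows a retained share of up to 12.5%. Reads that began inside intron 3 and ran unspliced into the next exon do not span it and were not counted.

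The last ARF8 intron has 2 annotated donors 4 nt apart. All 42 covering reads, 13 in replicate 1 and 29 in replicate 2, used the longer form of 76 nt, and none used the form of 72 nt.

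Of the 19 cap-labelled ARF8 reads, 13 began upstream and 6 began beyond offset 1000 nt, a division chosen after the positions were seen. Upstream, 6 reads from replicate 2 began exactly at position 14629560, which is 107 nt from the annotated start, 5 further capped reads began between 79 and 130 nt, and single reads at 150 and 261 nt. Downstream, most lay near the start of the fourth exon. A pair of capped reads, 1 from each replicate, began at position 14630680 (offset 1227 nt), inside the last bases of intron 3. A second pair, again 1 from each replicate, began at position 14630707 (offset 1254 nt), a single capped read began at offset 1157 nt in intron 3, and another at offset 1593 nt in intron 5. Both pairs lie just upstream of offset 1262 nt, where the coding region of the annotated transcript with retained intron 3 begins. All 6 of these reads carried a 3′ label, and their 3′ ends ranged from 4880 to 4968 nt.

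A gap of 95 nt inside a coding exon recurred in ARF8. It removed 14633156 to 14633250 in 5 reads and the interval shifted by 1 nt in 1 read. It was present in 3 of 13 reads that cover the place in replicate 1 (23.1%, 8.18 to 50.3) and in 3 of 28 in replicate 2 (10.7%, 3.71 to 27.2). Both reads that began at offset 1227 nt carried it. The gap is not annotated. It begins with GC and ends with TG, none of its equivalent placements has splice-site dinucleotides, and its first 6 bases are repeated directly after it. Its edges rest on the aligner's placement, and its origin was not tested. The sequences at its edges are given for comparison with those of intron 9, with the first 2 bases and the last 2 bases of each gap in capitals.
ARF8 gap, upstream edge: agtggcagcaGCaatcagag
ARF8 gap, downstream edge: tctggagaTGgcaatctttt
ARF8 intron 9, donor: gtgtccgcagGTgatgatgc
ARF8 intron 9, acceptor: aactttccAGgtacatgggt
A different unannotated gap of 102 nt in the same exon (14632723 to 14632824) had GT and AG at its ends and was seen in 1 capped read of replicate 2, out of 38 reads across it.

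**Figure D3:**
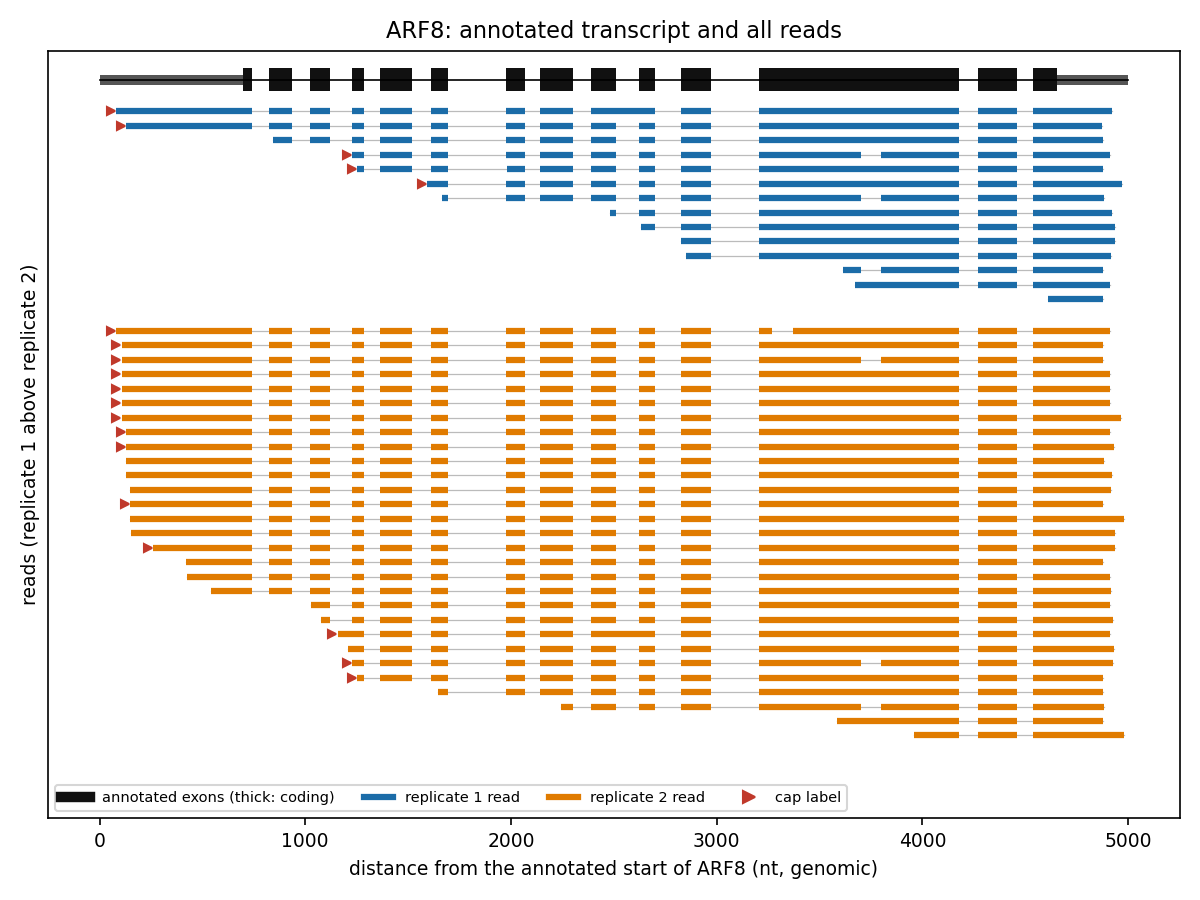
Annotated ARF8 transcript (top, coding exons thick) and all of its reads in replicates 1 and 2, by genomic distance from the annotated start (horizontal axis, nt), with cap labels as arrowheads. Capped reads begin near 107 nt and again near 1227 and 1254 nt, intron 9 is filled in 1 read of each replicate, and the gap of 95 nt interrupts the longest coding exon in 6 reads.

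The mRNAs of ARF6 and ARF8 are known targets of miR167, and those of ARF10, ARF16 and ARF17 of miR160. Plant microRNAs guide cleavage of the target between the bases opposite microRNA positions 10 and 11, which leaves a 3′ fragment without a cap. The microRNAs are given with the seed (bases 2 to 8) in capitals, and the target sites, as found in the transcripts, with the bases that flank the expected cut in capitals. All sequences were read from the TAIR10.1 genome.
miR160a: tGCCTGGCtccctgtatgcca
ARF10 site: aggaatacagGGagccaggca
ARF16 site: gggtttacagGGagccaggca
ARF17 site: tggcatgcagGGagccaggca
miR167a: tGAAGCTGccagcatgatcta
ARF6 site: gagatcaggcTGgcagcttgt
ARF8 site: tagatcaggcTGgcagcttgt
The sites have 2, 3 and 1 mismatches to miR160a in ARF10, ARF16 and ARF17, and 4 and 3 mismatches to miR167a in ARF6 and ARF8. All lie in coding exons.

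At the miR160 site of ARF10 (AT2G28350; chromosome 2, 12113889 to 12116957, plus strand; site chr2:12115741-12115761), 3 reads of replicate 1 began exactly at the expected first base of the 3′ fragment, 12115752. None of them had a cap label, all kept the 3′ label, and their 3′ ends lay at 12116837, 12116847 and 12116848. Whether they were separate RNA molecules or copies of the same cDNA was not tested. They were 3 of the 6 reads of the gene without a cap label, and whether their RNAs lacked a cap was not tested. Replicate 2 had no such read among its 3 reads of ARF10. Over all 10 genes, 96.5 uncapped fragment reads began at 93 different positions, of which only 3 held more than 1 read, and the ARF10 site was the one with 3. Complete reads were outside this count. Some of those shared an uncapped start too, such as ARF17 reads of both replicates at a spliced distance of 295 nt.

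At the site of ARF17 (AT1G77850; chromosome 1, 29272074 to 29275507, plus strand; site chr1:29274189-29274209), 1 uncapped read of replicate 1 began exactly at the expected position, 29274200, and 1 of replicate 2 began 2 nt downstream. The gene had 16 uncapped reads in all, and 26 reads ran across the site. No 5′ end lay within 5 nt of the expected cut in ARF16 (AT4G30080; chromosome 4, 14703065 to 14706354, minus strand; site chr4:14704141-14704161), where the nearest uncapped end was 290 nt away and 4 reads crossed the site. The same was true of the miR167 sites of ARF6 (chr1:10686478-10686498) and ARF8 (chr5:14633841-14633861), with the nearest uncapped ends 284 and 211 nt away and with 29 and 42 reads across the sites.

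ARF2, ARF3 and ARF4 are known targets of trans-acting small interfering RNAs made from the non-coding TAS3 transcript. The 21-nt windows of TAS3 that match them, and the sites, are given in the same way, with bases 2 to 8 of the windows in capitals.
TAS3 chr3:5862206-5862226: tTCTTGACcttgtaagacccc
TAS3 chr3:5862185-5862205: tTCTTGACcttgtaaggcctt
ARF2 chr5:24913261-24913281: agggtcttgcAAggtcaagaa
ARF3 chr2:14325942-14325962: agggtcttgcAAggtcaagaa
ARF3 chr2:14325822-14325842: aaggtcttgcAAggtcaagaa
ARF4 chr5:24309718-24309738: aaggtcttgcAAggtcaagaa
ARF4 chr5:24309508-24309528: agggtcttgcAAggtcaagaa
Each site has 2 mismatches to its window, and the site sequence of ARF2 recurs unchanged in ARF3 and ARF4. None of the 5 sites had a 5′ end within 5 nt of the expected cut. The nearest uncapped ends lay 25 nt downstream in ARF2 and 8 nt downstream of the first ARF3 site. The numbers of reads across these sites were 75 in ARF2, 38 and 39 in ARF3, and 8 and 9 in ARF4. Over all 10 sites, 4 reads began within 1 nt of an expected cut, all of them in replicate 1 and none with a cap label.

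**Figure D4:**
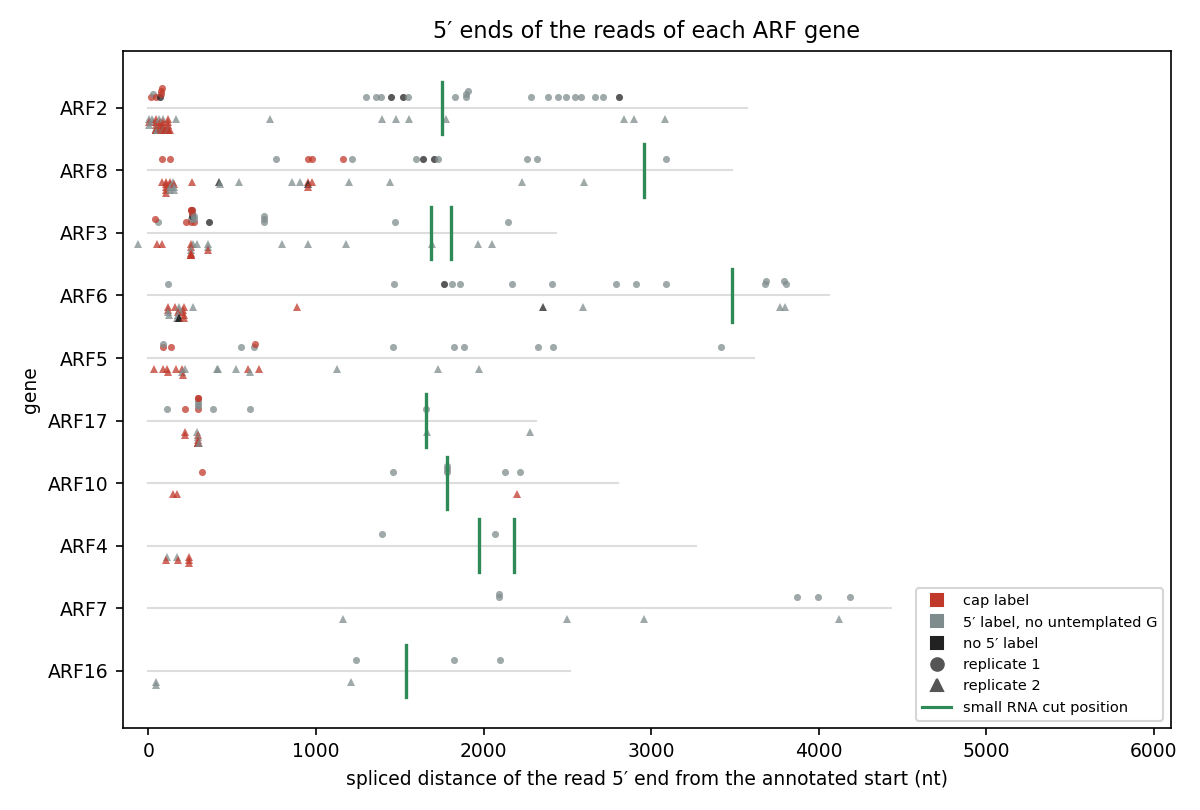
Spliced distance of every read 5′ end from the annotated start (horizontal axis, nt) for each ARF gene, by label (colour) and replicate (circles and triangles), with green bars at the expected small RNA cut positions. Red capped ends gather near the annotated starts, grey uncapped ends of replicate 1 spread over ARF2, ARF6 and ARF8, and 3 uncapped ends of replicate 1 fall on the cut position of ARF10.

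Among the repressors, ARF2 (AT5G62000; chromosome 5, 24910191 to 24915395, plus strand) was read in full in 3 annotated chains, with 30, 23 and 4 reads. The first 2 of them differ at the last intron, where 2 acceptors lie 3 nt apart behind a shared donor, within the coding region. The bases across both acceptors are given because they set the chains apart, with the last 2 bases of each intron in capitals.
ARF2 nearer acceptor: ttaatgacAGcaggatgggg
ARF2 farther acceptor: atgacagcAGgatgggggtc
The nearer acceptor was used in 17 reads and the farther in 9 in replicate 1 (65.4% nearer, 46.2 to 80.6), and in 38 and 27 reads in replicate 2 (58.5%, 46.3 to 69.6), so the replicates gave overlapping shares. Complete reads with the nearer acceptor numbered 3 and 27, and those with the farther 3 and 20. The files hold alignments and not bases, and with 3 nt between the acceptors the choice rests on the aligner's placement.

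The leader intron of ARF2 (24910611 to 24910712), annotated in 3 of 5 transcripts, was retained in 6 of 65 covering reads (9.23%, 4.30 to 18.7), namely by 1 read of replicate 1 and 5 of replicate 2. A complete annotated chain was formed by 4 of those from replicate 2, and all 4 were capped. The 44 capped ARF2 reads began at spliced distances of 6 to 129 nt from the annotated start, with 14 reads within 10 nt of 24910397, 14 within 10 nt of 24910428 and 7 within 10 nt of 24910469. Their median distance was 76 nt in both replicates.

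ARF3 (ETTIN, RefSeq symbol ETT, AT2G33860; chromosome 2, 14325206 to 14328978, minus strand), which patterns the gynoecium and lacks the C-terminal interaction domain of most ARFs, had a sharp start. Of its 19 capped reads, 13 lay within 10 nt of position 14328721, 6 in replicate 1 and 7 in replicate 2, with medians of 257 and 256.5 nt from the annotated start. The main chain of 9 introns was read in full 16 times in replicate 1 and 14 times in replicate 2. A second annotated chain, without the first intron, was read 3 times, all in replicate 1 and all without a cap label. All 3 began after the first exon of the main chain (spliced distance 689 nt) and did not span the first intron. This distance does not tell a start inside that intron from one at the first base of the next exon. Whether they are a separate isoform or reads that stopped short was not tested. No ARF3 intron was retained in more than 1 read. All 41 reads that kept the 3′ label ended at a single site around 14325269, 21 in replicate 1 and 20 in replicate 2.

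ARF4 (AT5G60450; chromosome 5, 24308255 to 24312784, minus strand), which acts redundantly with ARF3 in abaxial organ identity, had 9 reads. Its annotated first intron of 72 nt (24312019 to 24312090), present in 1 of 2 transcripts, was retained in 7 of 7 covering reads (64.6 to 100%), all from replicate 2. Intron 10 (24309783 to 24309883), which both transcripts splice, was retained in 2 of 8 reads, 1 in each replicate. This intron lies between exon 10, which holds the TAS3 sites, and the exon before it.

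ARF10, ARF16 and ARF17 are the miR160 targets. ARF17, which is required for the pollen wall, started mainly within 10 nt of position 29272369, 295 nt downstream of the annotated start, with 3 capped reads in replicate 1 and 7 in replicate 2. Its chain of 2 introns was read in full 8 and 14 times. Its second intron of 563 nt (29274626 to 29275188), spliced in 1 of 2 annotated transcripts, was retained in 2 of 27 covering reads (7.41%, 2.06 to 23.4), 1 per replicate and both capped. ARF10 had 2 complete reads in each replicate, but 1 of those in replicate 1 was uncapped and began at a spliced distance of 1461 nt. ARF16 had 2 complete reads, both from replicate 2 and both starting at a spliced distance of 45 nt, and none of its 6 reads was capped, which allows a share of up to 50%.

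Annotated starts mostly lay upstream of the read starts. A full match, with the complete chain and both ends within 100 nt of the annotated ends, was reached by 5 of 115 ARF reads in replicate 1 (4.35%, 1.87 to 9.78) and 7 of 192.5 in replicate 2 (3.64%, 1.78 to 7.33), against 7.96% and 14.4% in the other genes of the same lengths. A full match can fail at the chain or at either end, and these were not separated. ARF2 had 57 complete reads and 0 full matches, although its capped ends lay 6 to 129 nt from the annotated start. The leader is the stretch between the transcript's start and its coding region. It was measured from capped starts and set beside the annotated one. Upstream ATG triplets in the leader can lower translation of the main reading frame, and those of ARF3 and ARF5 are known for it. From the most-read capped start, the leader of ARF8 was 591 nt long with 10 ATG triplets (698 nt and 10 as annotated), and that of ARF6 was 742 nt with 7 (952 nt and 7). ARF2 had 360 nt with 2 (405 nt and 2). ARF3 had 108 nt with 1 (365 nt and 2). ARF17 had 36 nt with none (331 nt and 1).

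ARF5, ARF4 and ARF10, whose most-read starts held only 2, 3 and 1 capped reads, had 9, 4 and 2 ATG triplets in read leaders of 596, 352 and 297 nt. For comparison, 7113 genes had a most-read capped start that held at least 5 reads and lay upstream of the coding start. Over these, the median read leader was 79 nt and the median annotated leader 190 nt. An ATG was found in the read leader of 19.1% of these genes and at least 3 in 3.501%. The ATG count grows with leader length, and frame and context were not considered.

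Labelled 3′ ends merged within 50 nt formed 19 sites over the 10 genes, and the leading site held from 76.2% of the labelled reads (ARF8) to 100% (ARF3, ARF7 and ARF16). ARF8 ended mainly around 14634333, 227 nt past the last coding base, with 10 reads in replicate 1 and 22 in replicate 2, and a second site 54 nt downstream at 14634387 held 3 and 7 reads. ARF2 ended mainly around 24915175 with 18 and 54 reads, and a site at 24915113 held 6 and 9. ARF5 had 11 and 14 reads around 6891369, ARF6 had 13 and 19 around 10685897, and ARF17 had 11 and 14 around 29275419. No ARF gene had a labelled site with 5 or more reads upstream of its last coding base.

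The rest of the auxin pathway was read in a list of 64 genes, which gave context for the ARF levels. Of the 13 other ARF genes, 5 had reads and 8 had none, and ARF1 led with 33.5. All 6 auxin receptors had reads, 187 in sum, led by AFB1 with 53.5. Of the 29 Aux/IAA repressors, 25 had reads, 659.83 in sum, led by IAA8 with 159.5. The 5 TOPLESS family co-repressors had 79.33 reads, led by TPR1 with 25. Small RNA precursors and partners (the MIR160, MIR167 and MIR390 genes, TAS3 and AGO7) had 8 reads over 5 of 11 genes, with 4 for TAS3. In the test between replicates, 1 of 5 tested receptor genes passed (AFB2, with 1 read in replicate 1 and 17 in replicate 2, named after its values were seen), and none passed among 3 other ARF genes, 10 Aux/IAA genes and 4 co-repressors.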

How the data were processed

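Both libraries were prepared from total RNA of wild-type Col-0 inflorescences and sequenced on a PacBio Sequel. According to the methods, the authors built consensus reads with ccs, removed primers with lima, kept poly(A) reads with isoseq3 refine, aligned them to TAIR10 with minimap2 guided by TAIR10 junctions, and labelled the ends with Bookend. Versions are not given in the sources used here. The deposited values are expected counts of reads per aligned structure, with reads of several alignments split and no scaling to depth. The minimap2 limit on intron size and the labels for masked exons follow the authors. Masked reads, with a badly aligned exon, were never called complete.

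From these files, reads were counted for every gene whose exons they overlapped on the same strand (RefSeq annotation of TAIR10.1, whose chromosomes have the TAIR10 coordinates), and for the background each read was given to the gene of longest overlap. RPM are relative to reads assigned to nuclear genes. Single libraries carry 95% Poisson intervals for counts and 95% Wilson intervals for shares. A count of 0 is given the limit set by 3 counts. The replicates were compared per gene by a two-sided exact binomial test of counts rounded to whole numbers, with at least 10 reads and Benjamini-Hochberg adjustment, and this test was checked on simulated counts. Shares were compared by two-sided Fisher's exact tests within each replicate. Spliced distances follow the annotated transcript with the most matching reads, and a start inside an intron takes the distance of the next exon's first base. Capped 5′ ends were merged within 10 nt and labelled 3′ ends within 50 nt of the most-read position. Target sites were searched with at most 4 mismatches to a microRNA and at most 3 to a TAS3 window. The 2 TAS3 windows were taken in steps of 21 nt upstream of the downstream miR390 site. Python 3.11.15, NumPy 2.4.6, SciPy 1.17.1 and matplotlib 3.10.9 were used.

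There is 1 group, so no conditions were compared. The members and gene lists were chosen with earlier results of these data known. The genes named are the 10 ARF genes and the most-read gene of each other list. Of introns, those retained in at least 3 reads and 10% of covering reads were named, together with others of 1 or more reads, chosen after their values were seen. Ends and chains were named by the same kind of rule (the most-read of a gene, and others of at least 5 and 3 reads), with smaller ones named after their values were seen. Other alternatives were whole matches, other label requirements, other flanks and merging distances, other minimum reads, and leaving out a replicate.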

Additional observations from a re-analysis of the deposited data

Results flagged for a closer look

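Reads on the opposite strand over the exons of an ARF gene were outside every count above, and they exceeded the limit that a count of 0 allows at ARF7. There, 132 antisense reads overlapped the exons, 67 in replicate 1 and 65 in replicate 2, against 5 and 4 sense reads. All 132 belonged to AT5G20720 (CPN20, a plastid co-chaperonin), whose annotated span (7014662 to 7016698) overlaps the 3′ end of ARF7 by 254 nt. The reads were assigned by strand, and whether the overlap affects the ARF7 reads was not tested. At the other genes, antisense reads numbered 2 (ARF8), 1 (ARF3), 1 (ARF6) and 0 for the rest.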

How the results depend on the processing

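No paired analysis was possible because the samples form 1 group. Reading each read for its single best gene left the summed ARF reads at 307.5, while reads with both a cap and a 3′ label numbered 124, and leaving out a replicate gave 115 to 192.5. The mean share of complete chains (51.9%) was 3.99% for full matches within 100 nt and 0.260% within 50 nt, and 35.7 to 68.1% with a replicate left out. The mean cap share (37.5%) was 94.8% with any 5′ label, and 23.5 to 51.4% with a replicate left out. Retention of ARF8 intron 9 (mean 8.10%) was 16.1% in reads with both labels, from 1 of 4 and 1 of 14 reads, and 3.70 to 12.5% with a replicate left out. The median spliced distance of capped ends (mean 187 nt) was 801 nt with any 5′ label. The 19 sites at 3′ ends were 31 when merged within 25 nt and 11 within 100 nt. The 4 reads at small RNA cut positions numbered 4 at the exact position and 5 within 5 nt, and 0 to 4 with a replicate left out, since all came from replicate 1. The cause of these shifts was not tested beyond the narrower or wider definitions themselves. Genes that differed between replicates numbered 113, and 99 to 132 under other minimum reads and totals. ARF2 kept its call under these (adjusted p 0.00133 to 0.00335 from the exact binomial test), and no other ARF gene gained one. Depth limits all shares of ARF4, ARF7, ARF10 and ARF16, which rest on 10 reads or fewer.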

Other observations

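The hexamer AATAAA, searched on the transcribed strand within 40 nt upstream of the most-read labelled 3′ end, was present at 1 of 10 ARF genes (ARF16) and at 11.6% of 11885 nuclear genes with at least 5 labelled reads at their leading site. Reads without a 3′ label were few, with 15 structures and 14.5 reads over the 10 genes. In 10 of these structures at least 12 of the 20 genomic bases downstream of the aligned end were A, and an ARF3 read of replicate 2 that ran through introns 6 to 9 and ended 6200 nt from the annotated start had 17.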
